A study of Mus musculus with 5 samples.

Results

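The pore-forming subunits of voltage-gated calcium channels were followed at the RNA level in the hippocampus after seizures. The genes were chosen by symbol from the count files, and all 8 (Cacna1a, Cacna1b, Cacna1c, Cacna1d, Cacna1e, Cacna1g, Cacna1h and Cacna1i) were found among 55385 listed genes and passed the expression filter, which kept 19768 genes. Each of these genes encodes the large subunit that forms the calcium pore and senses voltage, and accessory subunits modify how many channels reach the membrane and how they open. Cav1 channels (L-type, Cacna1c and Cacna1d) link calcium entry at the soma and dendrites to gene expression, Cav2 channels (P/Q-type Cacna1a, N-type Cacna1b and R-type Cacna1e) act largely at presynaptic terminals and dendrites, and Cav3 channels (T-type Cacna1g, Cacna1h and Cacna1i) open at low voltage and favour burst firing.

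Total RNA was sequenced from hippocampi of male C57/bl6 mice aged 3 months. There were 5 libraries in 4 conditions: 1 library of untreated mice (control, labelled 0 h), and libraries of mice that received kainic acid (KA, 20 mg/kg, intraperitoneal), a glutamate receptor agonist that provokes seizures, and were sacrificed 1 h (1 library), 4 h (2 libraries) or 8 h (1 library) after seizure onset. The control received no vehicle injection, and the sources used here do not state how many mice a library holds. The counts on genes totalled 19100374 in the control, 17744508 at 1 h, 18250114 and 19109204 in library 1 and library 2 at 4 h, and 16612225 at 8 h. Values below are normalized CPM, that is, counts scaled to a common library total with the TMM factors of edgeR, and their intervals are exact Poisson 95% intervals, which cover counting error only.

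The 2 libraries at 4 h stood apart from each other in marker genes and in reads on no gene. The summed level of 4 choroid plexus markers was 3957 normalized CPM in the control, 1672 at 1 h, 28.8 in library 1 and 4233 in library 2 at 4 h, and 3069 at 8 h. The most abundant of these markers, Ttr, was at 16.3 in library 1 and 3971 in library 2. The summed level of 6 thalamus markers was 85.9 in the control, 97.3 at 1 h, 398 in library 1, 184 in library 2 and 72.2 at 8 h, and Prkcd among them was at 27.0, 29.1, 199, 79.0 and 23.8. The thalamus list was not uniform. Zic1 was slightly lower in library 1 (39.5) than in library 2 (42.1), and both exceeded its control value of 12.9. Each other thalamus marker was higher in library 1 than in library 2. For Lef1, library 2 (3.23) was below the control (3.52). No marker of either list was at 0 in any library. Reads on no gene made up 33.1% of all reads in library 1 and 25.3% in library 2, against 24.7% in the control, and 29.0% and 30.9% in the libraries of 1 h and 8 h. Values at 4 h are therefore given for each library, or for some genes and marker sums as a range over all libraries.

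**Figure D1:**
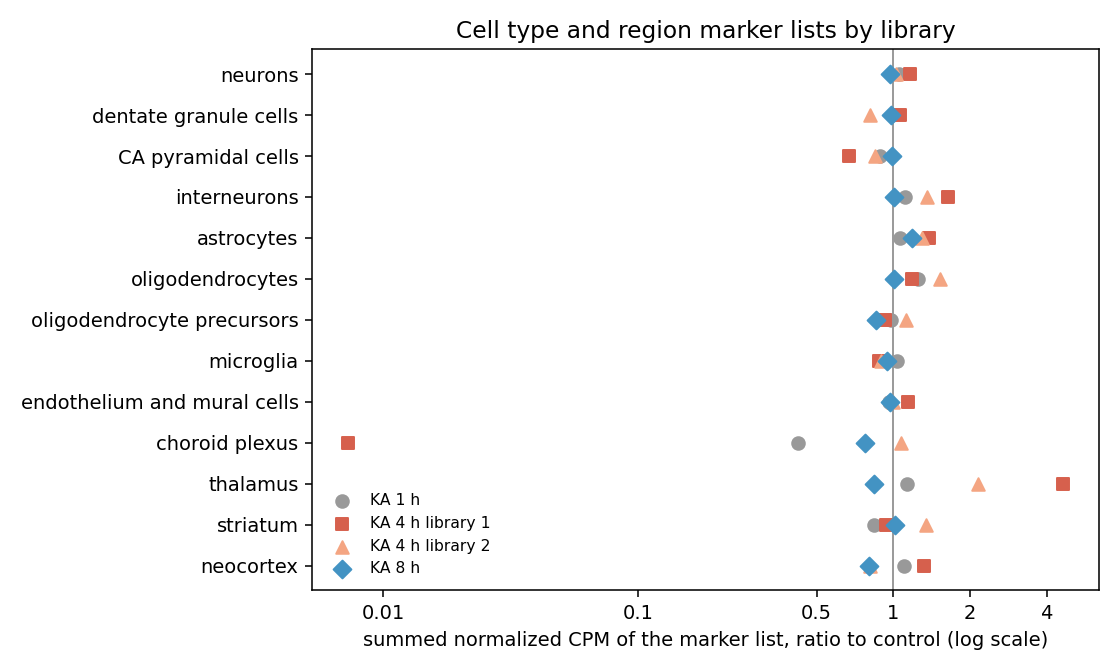
Summed normalized CPM of 13 marker lists in each KA library, as a ratio to the control library on a log axis; each symbol is 1 library. Library 1 at 4 h lies far to the left for choroid plexus (28.8 against 3957 in the control) and farthest to the right for thalamus (398 against 85.9).

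Activity-regulated genes were high at 1 h and in library 1 at 4 h, and only some of them in library 2. Fos, an immediate early transcription factor, was at 10.8 normalized CPM in the control, 999 at 1 h, 519 and 70.4 in library 1 and library 2 of the 4 h pair, and 17.2 at 8 h. Npas4, a neuronal activity-dependent transcription factor, was at 3.92, 694, 130.0, 4.92 and 5.13 in the same order. Homer1, a postsynaptic scaffold gene, was at 217, 1333, 3764, 1349.8 and 307. Arc was at 148, 2022, 2593, 928 and 152, Egr1 at 29.1, 215, 99.1, 30.9 and 19.1, and Nr4a1 at 33.8, 605, 163, 34.6 and 21.5. In library 2 at 4 h the ratios to the control were 1.06 for Egr1, 1.02 for Nr4a1 and 1.25 for Npas4, so that for these 3 genes the fitted rise at 4 h rests on library 1. Of these 6 genes, 6 were fitted at least 1.5-fold higher at 1 h and 6 at 4 h (9.65% and 16.3% of all genes tested), but 0 passed an adjusted p under 0.05 in the quasi-likelihood test of edgeR with adjustment by Benjamini and Hochberg, by DESeq2 or by limma-voom, and 6, 3 and 0 had an unadjusted p under 0.05 at 1, 4 and 8 h (2.42%, 11.6% and 4.51%).

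The members differ in the codon that sets the selectivity filter of the third repeat of the pore. This position is an acidic residue in every member, and is a glutamate in the high-voltage-activated Cav1 and Cav2 channels and an aspartate in the low-voltage-activated Cav3 channels, which is the best-known difference between their pores. The 2 genes that differed most between time points, Cacna1g and Cacna1h, carry the aspartate codon. Cacna1i carries it too, but varied less, with a ratio of highest to lowest level of 1.33, against 2.66 and 4.86. A link between this codon and RNA level was not tested. Coding stretches of 57 bases around the codon were read from GENCODE release M21 transcripts (GRCm38), 5′ to 3′, with the codon in capitals.
Cacna1c: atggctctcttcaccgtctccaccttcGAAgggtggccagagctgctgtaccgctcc
Cacna1d: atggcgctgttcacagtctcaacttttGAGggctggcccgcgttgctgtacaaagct
Cacna1a: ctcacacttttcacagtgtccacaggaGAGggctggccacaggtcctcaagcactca
Cacna1b: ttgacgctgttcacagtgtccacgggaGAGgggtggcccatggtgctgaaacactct
Cacna1e: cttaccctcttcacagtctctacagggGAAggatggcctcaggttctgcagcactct
Cacna1g: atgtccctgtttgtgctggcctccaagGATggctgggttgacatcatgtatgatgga
Cacna1h: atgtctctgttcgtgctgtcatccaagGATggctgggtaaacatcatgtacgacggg
Cacna1i: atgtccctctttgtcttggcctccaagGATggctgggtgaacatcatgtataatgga

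The stretches of Cacna1g and Cacna1h lie at chr11:94426444-94426500 and chr17:25383481-25383537 on the minus strand, and that of Cacna1i at chr15:80376780-80376836 on the plus strand. Each of these 3 lies within exon 24 of its transcript. In the 5 Cav1 and Cav2 genes the stretch spans 2 exons, at chr6:118654440-118656153 for Cacna1c, chr14:30099228-30100737 for Cacna1d, chr2:24650613-24651121 for Cacna1b and chr1:154443987-154444912 for Cacna1e on the minus strand, and at chr8:84581311-84583574 for Cacna1a on the plus strand. Cacna1g and Cacna1i were equal at 89.5% of the 57 bases and Cacna1g and Cacna1h at 84.2%, while Cacna1g and Cacna1c were equal at 47.4%. Over their whole coding transcripts, the longest run of identical bases shared by any pair of members was 68 bases, between Cacna1g and Cacna1i, followed by 50 between Cacna1h and Cacna1i and 43 between Cacna1c and Cacna1d. The count files list reads without a unique alignment apart from the genes, as 9.67% to 11.6% of all reads.

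The levels of the members were compared per length, as normalized CPM per kb of their annotated exons. In the control, Cacna1e was highest at 20.7, followed by Cacna1b at 12.8, Cacna1h at 10.4, Cacna1a at 8.59, Cacna1i at 6.70, Cacna1c at 5.57, Cacna1d at 4.92 and Cacna1g at 4.73. The exon length joins all annotated transcripts of a gene, 25228 bases for Cacna1e and 21191 for Cacna1c against 9763 for Cacna1h, so levels of genes with long rarely used exons would be understated. The order has no replicate check in the control, and the last 3 genes in it lay close to each other. Over the 5 libraries the ratio of the highest to the lowest level was 1.16 for Cacna1b, 1.18 for Cacna1a, 1.26 for Cacna1e and 1.33 for Cacna1i. It was larger for Cacna1d (1.78), Cacna1c (1.85), Cacna1g (2.66) and Cacna1h (4.86).

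**Figure D2:**
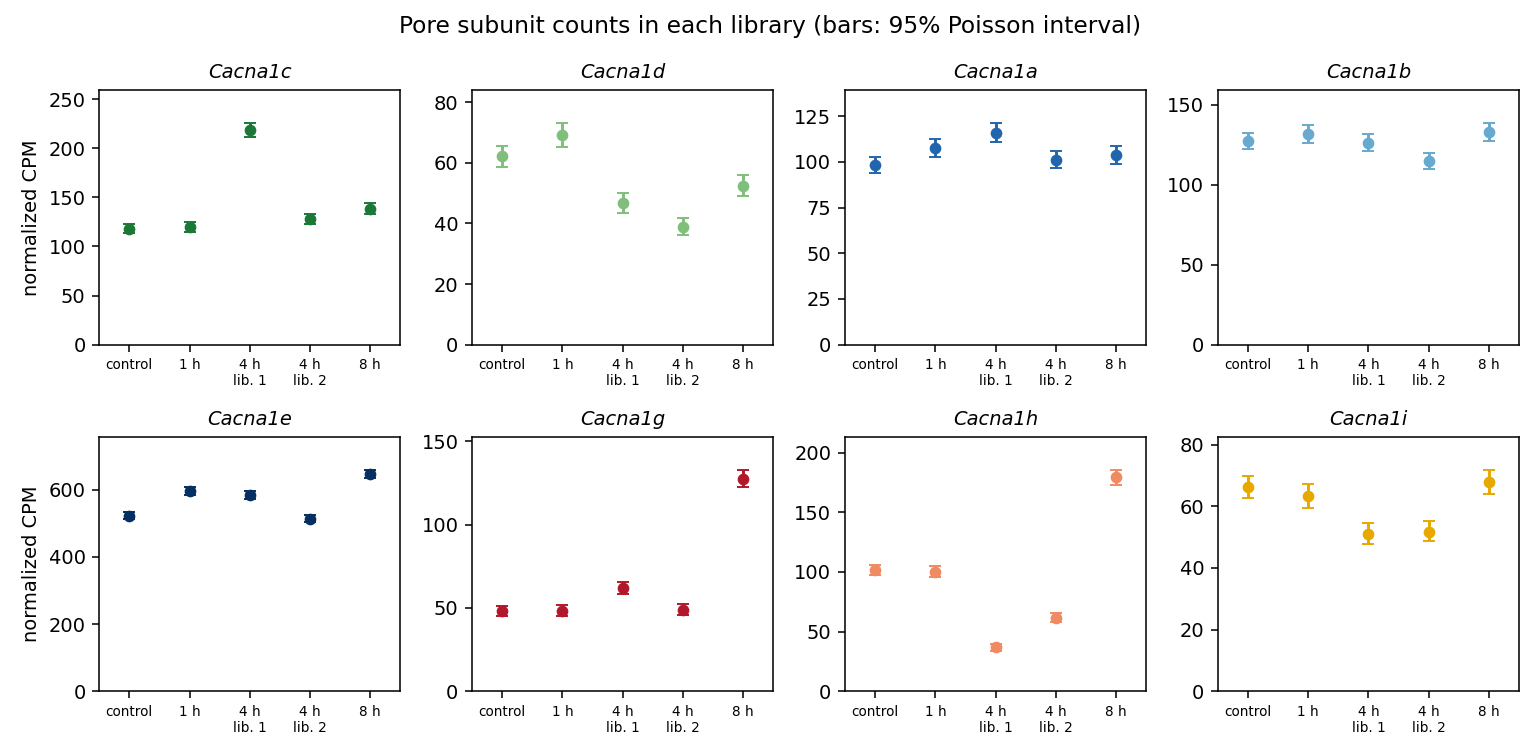
Normalized CPM of each pore subunit gene in the 5 libraries, with a separate axis from 0 for each gene; points are single libraries and bars are exact Poisson 95% intervals. Cacna1h was lowest in both libraries at 4 h (36.9 and 61.7) and highest at 8 h (179), and Cacna1g was highest at 8 h (127.6).

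At 1 h after seizure onset, when immediate early genes were high, no member stood out from the control. The fitted log2 fold changes ranged from -0.06 for Cacna1i to 0.19 for Cacna1e, with standard errors between 0.19 and 0.38. The median over the 8 members was 0.04, and over all genes tested -0.01. None of the 8 members passed an adjusted p under 0.05 or an unadjusted p under 0.05, or was fitted at least 1.5-fold higher or lower. Over all genes tested the percentages were 0%, 2.42%, 9.65% and 8.01%. Across the comparisons made here DESeq2 called Cacna1g and Cacna1h at 8 h against 4 h (132 of 19768 genes) and no other member, and limma-voom called none.

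At 4 h the T-type gene Cacna1h and the L-type gene Cacna1d had the lowest values relative to the control, and Cacna1c had a high value in 1 of the 2 libraries. Cacna1h (ENSMUSG00000024112.16) lies on chromosome 17 from 25374285 to 25433783 on the minus strand. It was at 101.4 normalized CPM in the control (interval 97.1 to 106), 99.96 at 1 h (95.3 to 104.7), 36.9 in library 1 (34.0 to 39.9) and 61.7 in library 2 (58.2 to 65.4) at 4 h, and 179 at 8 h (173 to 186). Both libraries at 4 h were below the other 3, by a ratio to the control of 0.364 in library 1 and 0.608 in library 2. The fitted log2 fold change was -1.04 ± 0.31 (SE) against the control and -1.02 ± 0.31 against 1 h, with adjusted p = 0.356 and 0.536 in edgeR's quasi-likelihood test. Without library 1 the first of these was -0.72, and without library 2 it was -1.46. The ratio of library 1 to library 2 was 0.598 for this gene, and 81.4% of tested genes had a smaller gap between the pair. Fewer cells that express the gene and less RNA per cell cannot be told apart in whole tissue, and the part of the marker differences between the libraries in these values was not tested.

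Cacna1d (ENSMUSG00000015968.18), the L-type subunit that opens at more negative voltage than Cacna1c, lies on chromosome 14 from 30039939 to 30491455 on the minus strand. It was at 62.1 normalized CPM in the control (58.6 to 65.6) and 69.0 at 1 h (65.2 to 73.0), then 46.7 and 38.8 in library 1 and library 2 at 4 h (43.5 to 50.1 and 36.1 to 41.7), and 52.3 at 8 h (49.0 to 55.8). The 2 libraries at 4 h were the lowest, below the control by ratios of 0.753 and 0.626. The log2 fold change at 4 h was -0.54 ± 0.20 against the control (adjusted p = 0.408, edgeR) and -0.69 ± 0.20 against 1 h (adjusted p = 0.534, edgeR). Chdh, a gene of the opposite strand, overlaps 4.67% of its exon bases, and it is not stated in the sources whether the counting used strand. In the same way Tpsg1 overlaps 1.62% of the exon bases of Cacna1h and Gm16183 overlaps 3.81% of those of Cacna1a. Without library 1 the value against the control was -0.68, and without library 2 it was -0.41.

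Cacna1c (ENSMUSG00000051331.16), the main L-type subunit of brain and heart, lies on chromosome 6 from 118587240 to 119196418 on the minus strand. It was at 118 normalized CPM in the control (113 to 123), 119.99 at 1 h (115 to 125.2), 218 in library 1 (211 to 225) and 128 in library 2 (123 to 133) at 4 h, and 138 at 8 h (133 to 144). Library 1 was above all other libraries and library 2 was not. The log2 fold change at 4 h was 0.55 ± 0.33 (adjusted p = 0.569, edgeR), and it was 0.12 without library 1 and 0.89 without library 2. Library 1 is the library with 398 normalized CPM of thalamus markers and 33.1% of reads on no gene, whose part in this value was not tested.

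Cacna1i, a T-type gene known for its high level in thalamic neurons, was at 66.1 normalized CPM in the control, 63.3 at 1 h, 50.96 and 51.8 in the pair at 4 h and 67.9 at 8 h. The pair at 4 h differed by a ratio of 0.984, and both lay below the other 3 libraries. Its log2 fold change at 4 h was -0.36 ± 0.17 against the control (adjusted p = 0.481, edgeR). The Cav2 genes varied less. Cacna1a lies on chromosome 8 from 84388440 to 84640246, Cacna1b on chromosome 2 from 24603887 to 24763152, Cacna1e on chromosome 1 from 154390731 to 154884501, and Cacna1i on chromosome 15 from 80287238 to 80398279. Cacna1a was between 98.1 and 116, Cacna1b between 115 and 133, and Cacna1e between 513 and 648 normalized CPM over the 5 libraries, and their log2 fold changes at 4 h were 0.15, -0.08 and 0.07, each with a standard error of 0.18 or less. The value of Cacna1e turned to -0.06 when libraries were scaled by their size alone and to -0.03 without library 1.

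Against the control at 4 h, 0 of 8 members passed an adjusted p under 0.05 (0.00506% of all genes tested) and 2, Cacna1d and Cacna1h, had an unadjusted p under 0.05 (11.6%). Cacna1h alone was fitted at least 1.5-fold lower (10%), and 0 members at least 1.5-fold higher (16.3%). The single gene called in the whole table was ETV3L, which was named after its values were seen. Both libraries at 4 h lay at least 1.5-fold below the control for 1 member, Cacna1h, and for 6.28% of all genes, and at least 1.5-fold above it for 0 members and 10.1% of genes. Because the pair stood apart, the fold counts were repeated without each library, an alternative chosen after seeing the data. Without library 1, 2 members (Cacna1d and Cacna1h) were at least 1.5-fold lower (9.7% of genes) and 0 higher (12.7%), and without library 2, 1 (Cacna1h) was lower (15.8%) and 1 (Cacna1c) higher (20.1%). Against 1 h, 0 members passed an adjusted p under 0.05 (0.00506%), 2 had an unadjusted p under 0.05 (7.94%), 2 (Cacna1d and Cacna1h) were fitted at least 1.5-fold lower (8.11%) and 0 higher (13.4%).

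At 8 h the T-type genes Cacna1g and Cacna1h had their highest values of all libraries. Cacna1g (ENSMUSG00000020866.17), which carries much of the T-type current of thalamic relay neurons, lies on chromosome 11 from 94408391 to 94474198 on the minus strand. It was at 47.98 normalized CPM in the control (45.0 to 51.1) and 48.4 at 1 h (45.2 to 51.7), then 61.8 and 48.8 in library 1 and library 2 at 4 h (58.1 to 65.7 and 45.7 to 52.1), and 127.6 at 8 h (122 to 133). The library at 8 h was above all 4 others, with a ratio to the control of 2.66 (exact binomial 95% interval 2.46 to 2.87). The log2 fold change was 1.41 ± 0.25 against the control and 1.20 ± 0.20 against 4 h, with adjusted p = 0.868 and 0.463 in edgeR's quasi-likelihood test. Over the 8 other settings the adjusted p of the second ranged from 2.37e-06 to 1, and 4 of them called it.

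Cacna1h was at 179 normalized CPM at 8 h, a ratio to the control of 1.77 (1.67 to 1.87). Its log2 fold change was 0.82 ± 0.37 against the control and 1.86 ± 0.30 against 4 h, with adjusted p = 1.00 and 0.463 (edgeR). Without library 1 the second was 1.54 and without library 2 it was 2.28. Its adjusted p ranged from 6.86e-18 to 0.608 over the 8 other settings, of which 4 called it. The only library at 8 h has no replicate, and the comparisons with the control share the same control library. The test takes the single libraries to vary like the pair at 4 h.

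The other members were closer to the control at 8 h. Cacna1e was at 648 normalized CPM, its highest value, with a log2 fold change of 0.31 ± 0.20, Cacna1c was at 138 with 0.23 ± 0.38, and Cacna1d was at 52.3 with -0.25 ± 0.23. Cacna1a, Cacna1b and Cacna1i had log2 fold changes of 0.08, 0.06 and 0.04. Of the 8 members, 0 passed an adjusted p under 0.05 (0% of all genes), 1 (Cacna1g) had an unadjusted p under 0.05 (4.51%), 2 (Cacna1g and Cacna1h) were fitted at least 1.5-fold higher (12.7%) and 0 lower (8.11%). Against 4 h, the numbers were 0 members (0%), 2 (Cacna1g and Cacna1h, 8.73%), 2 higher (10.5%) and 0 lower (12.5%). The median log2 fold change of the members was 0.15 against the control and 0.26 against 4 h, and that of all genes 0.01 and -0.02.

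**Figure D3:**
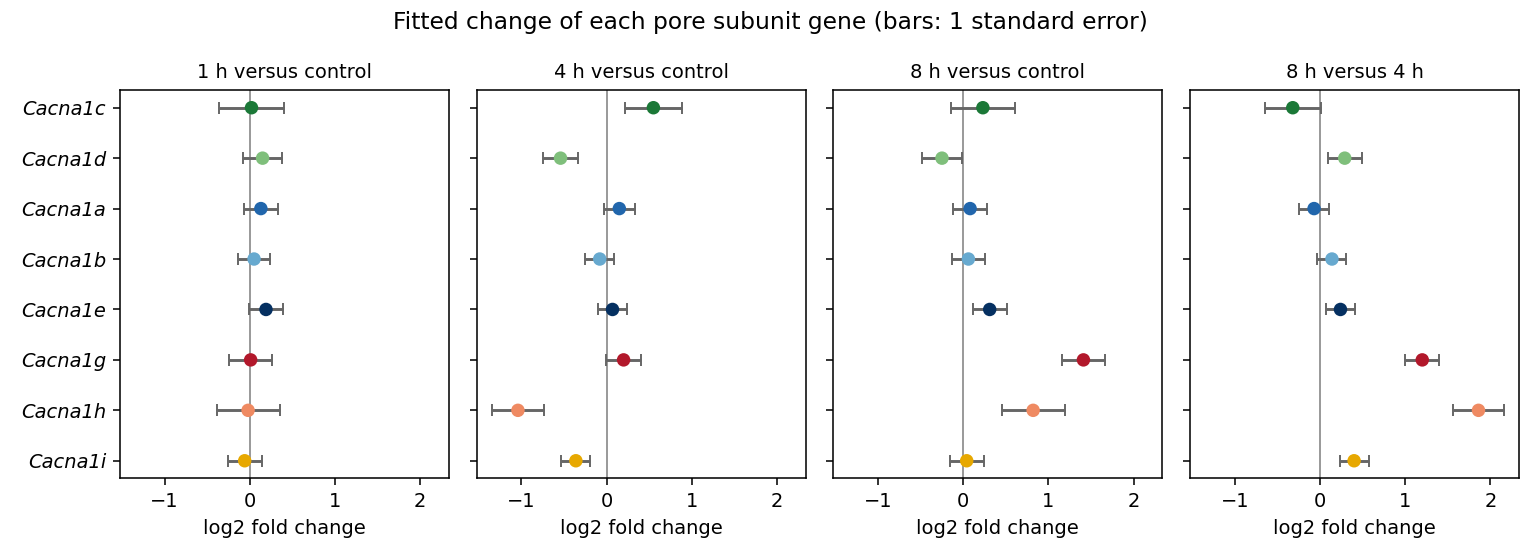
Fitted log2 fold change of each pore subunit gene in 4 comparisons, with bars of 1 standard error worked back from the test statistic of edgeR. Cacna1h is at -1.04 (4 h) and 0.82 (8 h) relative to the control, and Cacna1g at 1.41 at 8 h, with 0 members past an adjusted p of 0.05.

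The make-up of the pore RNA by channel class differed between libraries. Of the summed per-length level of the 8 members, the Cav3 genes took 29.3% in the control, 27.2% at 1 h, 20.0% in library 1 and 24.7% in library 2 at 4 h, and 39.2% at 8 h. The Cav2 genes took 56.6%, 58.7%, 61.3%, 61.5% and 49.8%, and the Cav1 genes 14.1%, 14.1%, 18.6%, 13.8% and 11.05%. The sum over the 8 members was 74.4 normalized CPM per kb in the control, 78.8 at 1 h, 75.1 and 66.3 in the 4 h pair and 96.6 at 8 h. The Cav3 sum went from 21.8 in the control to 15.0 and 16.4 in the pair at 4 h and 37.8 at 8 h. Between the pair Cacna1g was higher in library 1 and Cacna1h in library 2, so that the Cav3 sum differed less than these genes. Shares of a sum are not independent of each other, and these were not tested.

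**Figure D4:**
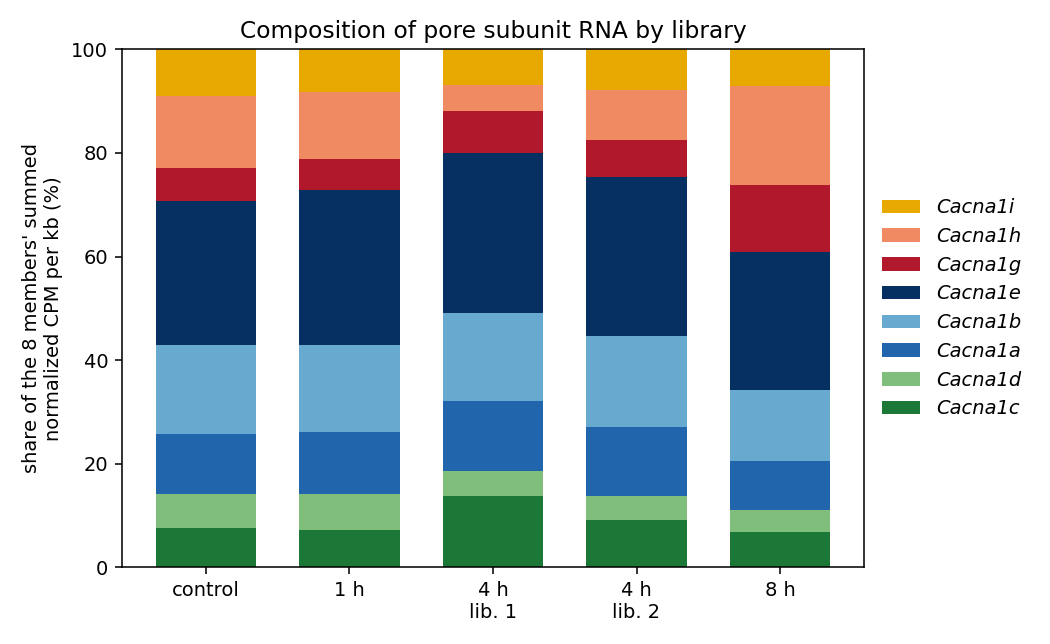
Share of each gene in the summed normalized CPM per kb of the 8 pore subunit genes, as stacked bars that start at 0, one for each library. Cacna1e holds the largest share in each library (26.6% to 30.9%), and Cacna1g and Cacna1h together are widest at 8 h, with 13.0% and 19.0%.

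Genes with the pattern most like each member were sought among 11880 other genes with at least 5 normalized CPM on average, as the root mean square difference of centred log2 values over the 5 libraries. Cacna1h was closest to Ror1 (0.118) and Pwwp2b (0.185), against its own range of 2.28 on the log2 scale. Cacna1g was closest to Csmd2 (0.0980) and Sv2c (0.167), with a range of 1.41. Csmd2 was at 48.3, 53.8, 66.8, 52.9 and 117.7 normalized CPM in the order of the libraries. Cacna1d was closest to Lyrm4 (0.0477) and Slc39a6 (0.0482), and Cacna1c to Stam (0.0526) and Pprc1 (0.0533). The nearest genes of the members with little variation were Ank2 and Arcn1 for Cacna1a, Gskip and Eif2d for Cacna1b, Polg and Stard10 for Cacna1e, and Snx15 and Phf2 for Cacna1i.

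Of the related pore genes, Cacna1f and Cacna1s, the L-type genes of retina and skeletal muscle, had at most 6 and 12 counts in a library. Nalcn, the sodium leak channel, was at 180.0 normalized CPM in the control, 189.0 at 1 h, 155 and 146 in the 4 h pair and 126 at 8 h. Beta, alpha2delta and gamma subunit genes were listed by symbol, and whether the gamma proteins serve calcium channels in this tissue was not examined. Of these 16 genes, 14 were tested. None passed an adjusted p under 0.05 in edgeR, DESeq2 or limma-voom against the control, while 0, 2 and 1 of them had an unadjusted p under 0.05 at the 3 times against the control (2.42%, 11.6% and 4.51% of all genes tested), with median log2 fold changes of 0.13, 0.11 and 0.02. Cacnb3, a beta subunit that brings the pore subunit to the membrane, was at 96.9 in the control, 89.7 at 1 h, 64.3 and 62.3 in the 4 h pair and 93.6 at 8 h, with a log2 fold change of -0.61 ± 0.16 at 4 h (adjusted p = 0.331, edgeR). Per length Cacnb4 was the most abundant beta subunit at 1 h and in the 4 h pair, and Cacnb3 in the control and at 8 h, while Cacna2d1 was the most abundant alpha2delta subunit in each library. Cacna2d4 had few counts, with 30 in the control and 38, 82, 57 and 85 in the KA libraries. The gamma subunits Cacng3, Cacng5 and Cacng7 were at 15.7, 4.91 and 6.85 normalized CPM at 8 h, each its lowest value, against 24.1, 9.24 and 10.7 in the control. Cacng2, Cacng4 and Cacng8 were at 28.0, 6.50 and 29.2 at 8 h, against 26.3, 7.24 and 29.1 in the control. Of the 6 gamma subunit genes tested, 3 were fitted at least 1.5-fold lower at 8 h (8.11% of all genes). An unadjusted p under 0.05 (edgeR) against the control was found for 0 of them (4.51%). At 8 h against 4 h, Cacng3 and Cacng5 (log2 fold changes of -1.24 and -1.45) and Cacnb3 (0.56) had one (8.73% of all genes tested). In that comparison 0 of the 14 genes passed an adjusted p under 0.05 (edgeR). Cacng8 was the most abundant gamma subunit per length in each library except library 1 at 4 h, where Cacng3 was.

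The RGK genes encode small GTPases that inhibit high-voltage-activated channels through the beta subunit. Gem was at 1.31 normalized CPM in the control, 28.1 at 1 h, 22.2 and 6.56 in the pair at 4 h, and 3.37 at 8 h. Rrad was at 0.754, 2.67, 11.05, 3.65 and 1.14, and Rem2 at 10.8, 15.9, 28.3, 33.6 and 22.1 in the same order. Gem and Rrad differed 3.39-fold and 3.03-fold between the 2 libraries at 4 h, with the higher value in library 1, as for Fos. Rem1 had at most 12 counts. Of these 4 genes, 1, 3 and 1 had an unadjusted p under 0.05 at 1, 4 and 8 h, each higher than the control (2.42%, 11.6% and 4.51% of all genes tested in either direction), and 0 passed an adjusted p under 0.05 (edgeR), while DESeq2 called 1, 3 and 0 (49, 233 and 32 among all genes) and limma-voom 0.

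Of 13 other partners of the channels, none passed an adjusted p under 0.05 against the control (edgeR, DESeq2 or limma-voom), and an unadjusted p under 0.05 was found for 0 at 1 h, 1 at 4 h (Stac) and 3 at 8 h (2.42%, 11.6% and 4.51% of all genes tested). Rimbp2, which ties presynaptic calcium channels to release sites, was at 113 normalized CPM in the control, 126 at 1 h, 92.5 and 123 in the 4 h pair and 246 at 8 h, a log2 fold change of 1.12 ± 0.26 at 8 h (adjusted p = 0.882, edgeR). Ncs1 was at 369, 378, 456, 466 and 567, and Akap5, an anchor of L-type channels, at 127, 133, 101.0, 112 and 80.9. Stac, which binds L-type channels, was at 4.77, 7.57, 11.6, 11.2 and 6.79, and Stac3 had at most 52 counts. At 8 h against 4 h, DESeq2 called 1 of the 13 partners (132 of 19768 genes). In the same comparison Rimbp2 (higher) and Cbarp (lower) had an unadjusted p under 0.05 in edgeR (8.73% of all genes). Snap25 was the most abundant of these partners per length. The 3 calmodulin genes, of which Calm2 was the most abundant per length, had median log2 fold changes between 0.02 and 0.12 against the control.

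Markers of hippocampal and other cells were then followed. Prox1, Fibcd1 and the other granule and pyramidal cell markers found in the files were above 0 in every library. So were the choroid plexus, thalamus, striatum and neocortex markers, so that presence above 0 is no check of the tissue label. The summed CA pyramidal cell markers, of which 4 of 5 were listed, were at 278 normalized CPM in the control, 247 at 1 h, 187 and 235 in the 4 h pair and 274 at 8 h, and the dentate granule cell markers at 270.4, 266, 288, 219 and 265. The sums hide genes that moved in opposite directions. Of the granule cell markers, Prox1 was at 60.0 in the control and 172 and 120 in the 4 h pair, while Dsp went from 72.2 to 4.34 and 13.6 and C1ql2 from 29.3 to 11.05 and 11.7, and DESeq2 called 2 of the 5 at 4 h (233 of 19768 genes). At 8 h these 3 were at 77.1, 68.5 and 58.1, and of the pyramidal cell markers Grik4 was at 46.3 in the control, 40.9 at 1 h, 30.5 and 37.9 in the 4 h pair and 81.7 at 8 h, and Fibcd1 at 132, 112, 69.1, 92.3 and 98.1. C1ql2 and Grik4 were lowest in the 2 libraries at 4 h and highest at 8 h, as Cacna1h was. No other granule or pyramidal cell marker listed had this pattern. Calb1 was at 102 in the control, 89.2 and 72.5 in the 4 h pair and 60.7 at 8 h. Tdo2 was at 6.68, 12.1, 1.11 and 0.799 in the same order. Wfs1 was between 76.7 and 88.5 and Spink8 between 10.5 and 16.8 over all libraries. Of the 5 granule cell markers, 1 was fitted at least 1.5-fold higher at 8 h (12.7% of all genes tested) and 2 lower (8.11%). Interneuron markers were at 522 in the control, 578 at 1 h, 852 and 705 in the 4 h pair and 524 at 8 h. Of these 7 genes 2 (Gad1 and Gad2) had an unadjusted p under 0.05 at 4 h (11.6% of all genes tested), and the median log2 fold change was 0.18. Gad1 was at 256 in the control and 515 and 379 in the pair, and Gad2 at 103, 150 and 155. In the same libraries Slc32a1 was at 31.6, 28.2 and 39.2, Pvalb at 23.0, 24.8 and 22.0, and Lhx6 at 10.2, 8.37 and 10.9. Sst was at 80.8, 103 and 80.9, and Vip at 17.2, 21.7 and 17.1. The neuron markers lay between 4699 and 5650, astrocyte markers between 1755 and 2424 (with Gfap at 221, 272, 596, 510 and 587 and Gja1 at 195 in the control and 98.6 at 8 h), oligodendrocyte markers between 3104 and 4724, oligodendrocyte precursor markers between 126 and 164, microglia markers between 166 and 194, endothelial and mural markers between 175 and 207, striatum markers between 41.9 and 66.9 and neocortex markers between 83.3 and 137. The part of cell make-up in the values of Cacna1h was not tested.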

How the data were processed

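The authors deposited raw counts of reads per gene for 5 libraries, made from total RNA with a stranded kit, aligned with STAR 2.5.1b and counted with HTSeq on GRCm38.p4, as named in the submitters' processing notes. No normalization had been applied. Lines that name no gene were left out. Counts were fitted in R 4.3.3 with edgeR 4.0.16 (filterByExpr, TMM, quasi-likelihood test with 4 groups, prior count of 2 for fold changes). The test gives no standard error. Those shown were worked back from its statistic and from coefficients fitted with a smaller prior count than the fold changes. The 4 h pair alone leaves 1 residual degree of freedom. DESeq2 1.42.0 and limma 3.58.1 were alternatives, as were other scalings, filters and assumed biological coefficients of variation. The fit was run on simulated data in which each gene took the trended spread of the fit. It therefore does not show how the test behaves with the gene-specific spread of these libraries. Ratio intervals are exact binomial and, like the Poisson intervals, cover counting error only. Exon positions and lengths came from GENCODE M21, in which 55144 of the identifiers were found. Genes named outside the members were mainly those of the lists with a fitted 1.5-fold change at any time and at least 50 counts in a library, with the most abundant gene of a list; genes with few counts are named as such, and not every marker gene that changed is named. The members and lists were chosen with earlier results of these data known. Figures were drawn with matplotlib.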

Additional observations from a re-analysis of the deposited data

How the results depend on the processing

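The number of genes with an adjusted p under 0.05 depended strongly on the setting, while the fitted values of the members did so less. In the order 1 h, 4 h and 8 h against the control, 4 h against 1 h and 8 h against 4 h, the quasi-likelihood test of edgeR (Benjamini-Hochberg) called 0, 1, 0, 1 and 0 genes, and 478, 2291, 892, 1569 and 1726 had an unadjusted p under 0.05. With library size alone it called 57, 237, 22, 67 and 120, with no filter on low counts 285, 1300, 279, 725 and 957, with DESeq2 49, 233, 32, 103 and 132, with a coefficient of variation set to 0.2 238, 916, 184, 513 and 660, and with one of 0.4 40, 81, 12, 33 and 48. With median-of-ratios factors and with limma-voom it called 0 in each comparison, and with at least 10 counts in every library 1 at 1 h and 0 in the others. The prior degrees of freedom were 4.42 as reported, 11.2 with library size alone and infinite with no filter, where each gene takes the spread of the trend. The cause of the differences in calls between the settings was not tested.

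Of 320 member values from these refits, 303 kept their direction and their side of the threshold, 11 were newly called and 6 changed sign. The newly called values were those of Cacna1g and Cacna1h, at 8 h against 4 h with 4 settings each (library size alone, DESeq2, no filter and a coefficient of 0.2), and with no filter for Cacna1g at 8 h and Cacna1h at 4 h against the control and Cacna1h at 4 h against 1 h. The 6 sign changes came with library size alone, which moved the median log2 fold change of all genes to -0.11 at 4 h against the control and 0.12 at 8 h against 4 h: Cacna1c, Cacna1b and Cacna1g at 1 h (-0.05, -0.02 and -0.06), Cacna1a at 4 h against 1 h (-0.04) and at 8 h against 4 h (0.08), and Cacna1e at 4 h against the control (-0.06). Of 48 values without a 4 h library, which have no test, 4 changed sign, each without library 1: Cacna1c and Cacna1a at 8 h against 4 h (0.11 and 0.03, against -0.66 and -0.16 without library 2), Cacna1a at 4 h against 1 h (-0.09, against 0.11) and Cacna1e at 4 h against the control (-0.03, against 0.16). Leaving out 1 of 2 libraries always moves a mean by about the same share of their gap, so that the size of these moves says nothing of stability. No paired analysis was possible because only the 4 h group has a second library. The adjusted p values rest on the spread between the 4 h pair, and the single libraries of the other conditions have no check of their own. Depth limits few member values, with at least 621 counts in each library.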
